A study of Drosophila melanogaster with 2 samples.

Results

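Near-TSS intronic peaks of woc (without children), a zinc finger protein, were the summits that fell inside the body of a protein-coding gene, outside every annotated exon, and more than 500 and up to 2000 bp from the closest transcription start site (TSS) of a protein-coding transcript. Of the 6636 peaks in the authors' optimal list on the dm6 genome, 6614 had summits on the arms of X and the autosomes (2L, 2R, 3L, 3R and 4), and 841 of these met the position rule (12.7%, exact 95% binomial interval 11.9% to 13.5%). The data were ChIP-seq of whole wandering larvae, in the third instar, of the strain woc-GFP, a transgenic Drosophila melanogaster line that stably carries woc with GFP fused to its C-terminus, with males and females pooled. Chromatin was sonicated and precipitated with antibody against GFP in 2 libraries, biological replicates 1 and 3. They formed 1 group from 1 fly line, so there was no second genotype, treatment or stage, and every larval tissue contributed to each library. A control alignment entered the authors' peak calling for each library and was not analysed here. A peak's signal is the value given by the authors' caller. Its scaling between lists is not stated, so it ranks peaks within a list, while a ratio of replicate 3 to replicate 1 signal describes the deposited values and may hold a difference in scaling. Depth is unknown.

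The woc protein is known from flies as a partner of the heterochromatin protein HP1c and the zinc finger protein row, with which it is found at active promoters in euchromatin, and woc mutants are defective in ecdysteroid synthesis and in the protection of chromosome ends. The stretch just inside a gene is often the start of a long first intron. Such introns are known to hold enhancers and alternative start sites. The interval of 1 member alone (0.119%) covered the TSS closest to its summit.

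The sequences at the strongest members are shown first because they are the sites on which the highest values rest. Each runs 50 bp to either side of the summit, on the + strand of dm6, taken from the RefSeq Release 6 genome. Capitals mark matches, on either strand, to any of the 24 motifs searched. The intron of ush held 2 copies of GGAATG (a binding word of the Hippo pathway factor Sd), a TATAAAA word and CGATA (a word that is also part of the DRE, the DNA replication-related element). CG11050 held the homeodomain word TAATTA. Lk6 held TTCNNNGAA (STAT) and TGTTTAC (forkhead). Zw held CGATA, the AP-1 word TGANTCA and the Pho word GCCAT, and CG9663 held the forkhead word. No motif of the 24 was found in the printed stretch of wit. These short words are common in eligible sequence too. Those of Sd and Pho had lower shares at members. GGAATG was in 6.06% of member windows (100 bp to either side of the summit) and 9.47% of windows tiling eligible sequence. GCCAT was in 22.7% and 33.8%. TATAAAA had a higher share at members, with 14.6% and 10.5%. For the STAT, forkhead, AP-1, CGATA and homeodomain words the exact binomial interval of the member share held the eligible share. The interval counts each member as independent, though 45.8% had another optimal summit within 1000 bp, so it is a description and not a test. TTCNNNGAA was in 5.23% (3.83% to 6.96%) and 6.68%, and TGTTTAC in 4.88% (3.52% to 6.56%) and 5.35%. TGANTCA was in 6.54% (4.96% to 8.43%) and 5.62%, and CGATA in 22.4% (19.6% to 25.3%) and 21.2%. TAATTA was in 16.3% (13.9% to 19%) and 15.4%. These sites were rich in A and T, with GC from 22.8% at CG11050 to 42.6% at Zw.
ush, chr2L:481051-481151, signal 2866: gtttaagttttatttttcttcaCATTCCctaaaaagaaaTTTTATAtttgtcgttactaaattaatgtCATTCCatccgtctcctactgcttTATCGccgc
CG11050, chr2L:6612653-6612753, signal 1798: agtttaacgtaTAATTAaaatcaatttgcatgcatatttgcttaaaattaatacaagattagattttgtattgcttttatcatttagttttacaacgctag
Lk6, chr3R:11761002-11761102, signal 1636: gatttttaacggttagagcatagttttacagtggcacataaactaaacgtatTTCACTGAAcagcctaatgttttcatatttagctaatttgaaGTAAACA
Zw, chrX:19668540-19668640, signal 1471: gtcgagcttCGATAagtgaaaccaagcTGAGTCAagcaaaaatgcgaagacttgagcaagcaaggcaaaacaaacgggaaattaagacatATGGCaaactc
CG9663, chr2L:3302136-3302236, signal 1330: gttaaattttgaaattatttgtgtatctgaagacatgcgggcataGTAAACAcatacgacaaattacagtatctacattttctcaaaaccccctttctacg
wit, chr3L:4070570-4070670, signal 1281: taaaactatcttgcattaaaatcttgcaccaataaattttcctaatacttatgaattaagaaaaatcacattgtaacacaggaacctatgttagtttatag

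A second set is shown because it holds the words that were most over-represented at members. All words of 8 letters found in at least 15 member windows (100 bp to either side of the summit) were ranked, with strands merged, by their share in members over their share in eligible windows, which tile the sequence meeting the same position rule. Of 1799 words, GCACAGTG and CACAGTGG ranked first and second. They overlap in CACAGTG and together spell a run of 9 letters. The sequences run 50 bp to either side of the summit, on the + strand of dm6, of 4 of the highest members that hold either word in that stretch, leaving out 1 arm. Capitals mark the word on whichever strand it lay, so CCACTGTG and CACTGTGC are the same words read from the other strand. In each of these 4 both words overlapped to give the longer run.
CG32767, chrX:5083673-5083773, signal 755: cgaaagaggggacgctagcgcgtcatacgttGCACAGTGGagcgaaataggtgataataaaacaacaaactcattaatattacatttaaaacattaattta
Drak, chrX:11494990-11495090, signal 646: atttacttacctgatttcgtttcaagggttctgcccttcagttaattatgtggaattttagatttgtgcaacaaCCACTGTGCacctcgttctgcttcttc
CG11357, chr3L:4543289-4543389, signal 442: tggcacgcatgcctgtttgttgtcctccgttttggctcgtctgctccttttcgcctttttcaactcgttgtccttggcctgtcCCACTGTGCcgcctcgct
grp, chr2L:16684751-16684851, signal 317: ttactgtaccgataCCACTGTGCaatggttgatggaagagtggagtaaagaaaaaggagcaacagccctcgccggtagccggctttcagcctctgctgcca

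The run lay on the + strand in CG32767. It lay on the other strand in the kinase gene Drak, in CG11357 and in grp (the checkpoint kinase Chk1). Bases on either side differed between the 4 sites, and GC ranged from 35.6% at CG32767 to 56.4% at CG11357. Either word was found in 72 of 841 members (8.56%, exact 95% interval 6.76% to 10.7%) and in 1.37% of 49328 eligible windows. In eligible windows that touched no optimal peak the share was 1.17%. The words were chosen on the members' own share, so that share is a description. Other summits held the words too: a match was found at 4.86% of promoter summits (within 500 bp of a TSS; 4.11% to 5.7%), at 5.85% of deep intronic summits (over 2000 bp from a TSS; 4.71% to 7.17%) and at 5.88% of intergenic summits (4.58% to 7.42%). These classes were not used to choose the words.

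Of 241 matches to the word pair within 250 bp of a summit, 64 lay in the central 100 bp, 70 from 50 to 100 bp to either side and 22 in the outer 100 bp. The words were chosen for their share within 100 bp of the summit, so fewer matches beyond that distance follow from the choice, and inside it the count was no higher at the centre. The pooled signal of the 72 members with a match had a median of 207 (quartiles 141 to 336), against 184 (132 to 299) for the 769 without, so the ranges overlapped. Their GC content was 40.5% against 35.8%, and 50% of them against 36.3% had a promoter peak at the closest TSS. The median ratio of replicate 3 to replicate 1 signal was 2.76 with a match and 2.38 without, and a match was found in 8.35% of the members rebuilt from the replicate 3 library's own highest peaks but 5.5% of those rebuilt from the replicate 1 library. On X 25 of 193 members held a match (13%), and on 2L 8 of 125 (6.4%). The share was 9.09% on 2R, 7.33% on 3R and 6.25% on 3L, with 0 of 2 members on chromosome 4. The share of eligible windows is not given by arm. Of the 68 members with a match and no other member in the same window, 0 shared a 20 bp word with any other member. The highest signals with a match were at KCNQ, a voltage-gated potassium channel gene (1171), Trl, which encodes the GAGA factor (1078), and chn, a zinc finger repressor gene (808). Among 6-letter words, ACAGTG, the core of the pair, ranked first of 1417, in 24.3% of members and 7.93% of eligible windows (3.06-fold). ACTGTA followed, in 18.8% against 7.5%, then CTGTAC, in 10.2% against 4.45%, and AGGGTA, in 10.6% against 4.77%. Other summits held these words as well: ACAGTG was in 20.2% of deep intronic and 17.7% of promoter summits, ACTGTA in 14.1% and 12%, CTGTAC in 8.61% and 5.92%, and AGGGTA in 13.7% and 7.29%.

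**Figure D1:**
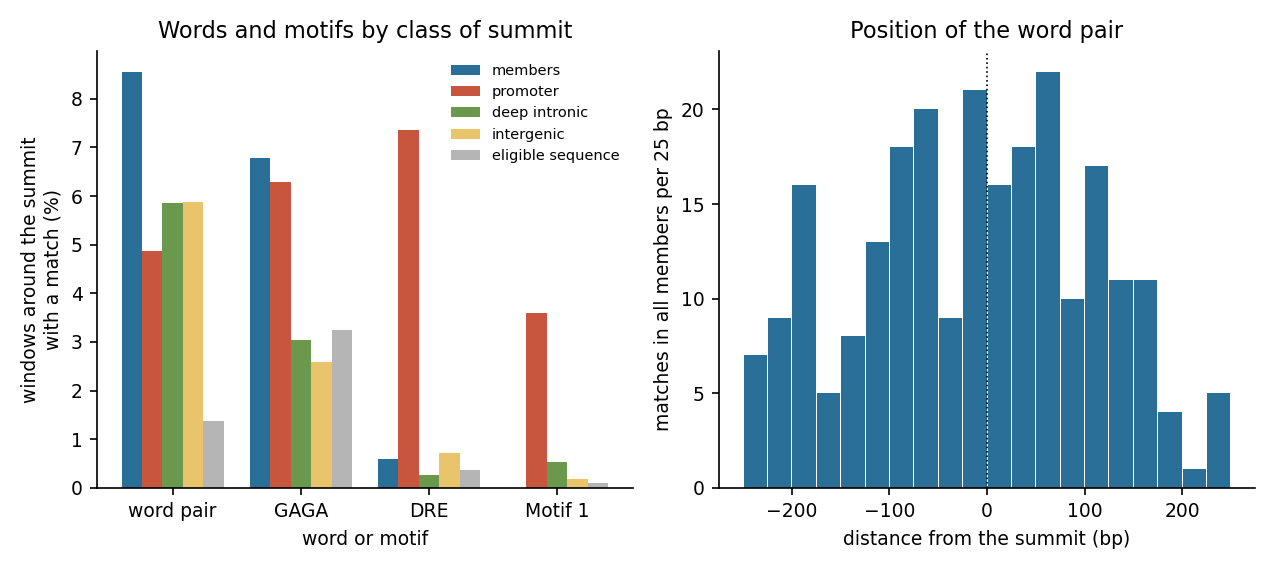
Left, share of windows of 100 bp to either side of the summit with a match to the 8-letter word pair, GAGA, DRE or Motif 1, in members, in promoter, deep intronic and intergenic summits, and in eligible sequence. Right, matches to the word pair in the 841 members per 25 bp of distance from the summit (dotted line). The word pair was in 8.56% of members and 1.37% of eligible windows, while DRE and Motif 1 stood out at promoter summits.

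Of the 24 motifs searched on both strands within 100 bp of the summit, 2 that are known from fly housekeeping promoters were rare at members. Both were rare in eligible windows too. The DRE (TATCGATA), bound by the factor DREF, was found in 5 of 841 members (0.595%), in 7.36% of promoter summits and in 0.375% of eligible windows. Motif 1 (GGTCACACT), a word of housekeeping promoters, was in 0 of 841 members, which allows a share of up to 0.357% (3 counts of 841). It was in 3.59% of promoter summits and 0.0892% of eligible windows, so the count of 0 does not set members apart from eligible sequence. The short word CGATA was in 22.4% of members, 39.9% of promoter summits and 21.2% of eligible windows. GAGAGAG, the word read by GAGA factor, was in 57 members (6.78%, interval 5.17% to 8.69%), against 6.29% of promoter summits, 3.03% of deep intronic summits and 3.24% of eligible windows. Its matches lay to the sides of the summit: 40 in the central 100 bp and 115 in the outer 100 bp. Runs of A (AAAAAAAA) were in 18.3% of members, 17.9% of deep intronic summits and 12.9% of eligible windows. At members 238 of their matches lay in the central and 149 in the outer 100 bp. TATAAAA, the TATA box of core promoters, was in 14.6% of members and 10.5% of eligible windows. At promoter summits its share was 17.3%, and at deep intronic summits 14.1%. CA repeats (CACACACA) were in 7.02% of members, 4.24% of deep intronic summits and 4.94% of eligible windows. GGGCGTGGC (Kruppel-like) and CCGGAAGT (Ets) were in 0 members and in 0.705% and 0.288% of eligible windows. The homeodomain word TAATTA was in 16.3% of members and 15.4% of eligible windows. AGATAA, read by GATA factors, was in 14.7% and 13.5%. The median GC content of member windows was 35.8% and that of eligible windows 39.8%, so words rich in A and T meet a different base composition in the 2 sets. Other summits shared the lower GC content, with medians of 35.8% at promoter and 36.3% at deep intronic and intergenic summits.

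The highest members holding GAGAGAG within 50 bp of the summit, again leaving out 1 arm, are shown because the share of that word was close to its share at promoter summits. The strongest member with the word within 100 bp was Lk6. Capitals mark the word on either strand, and sequences are on the + strand of dm6. Dok encodes an adaptor of tyrosine kinase signalling and ck encodes myosin VIIa.
Dok, chrX:7324901-7325001, signal 791: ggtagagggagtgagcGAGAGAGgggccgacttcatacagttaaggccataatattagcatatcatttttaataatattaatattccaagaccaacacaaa
CG1943, chr3R:7075783-7075883, signal 455: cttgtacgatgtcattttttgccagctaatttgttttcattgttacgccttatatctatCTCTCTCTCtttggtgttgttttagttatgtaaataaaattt
ck, chr2L:15056955-15057055, signal 330: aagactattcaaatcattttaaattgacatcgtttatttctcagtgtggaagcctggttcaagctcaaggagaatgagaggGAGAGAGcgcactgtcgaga

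Member summits occurred at 84.7 per Mb of the 9.93 Mb that met the position rule, a set of positions that made up 7.41% of the arms. Deep intronic sequence held 38.5 summits per Mb, intergenic sequence 32.6, exons away from promoters 6.76 and promoter sequence 191. Within introns the density fell with distance from the TSS. It was 110 per Mb from 500 to 750 bp, 91.3 from there to 1000 bp, 93.5 up to 1250 bp, 69.8 in each of the next 2 bins and 60.7 from 1750 to 2000 bp. Beyond the band it was 60.9 from 2000 to 2500 bp, and it reached 37.3 from 10000 to 20000 bp. The median signal was 191 in the bin closest to the TSS, 174 to 195 in the other bins of the band, 170 from 2000 to 2500 bp and 159 from 10000 to 20000 bp.

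**Figure D2:**
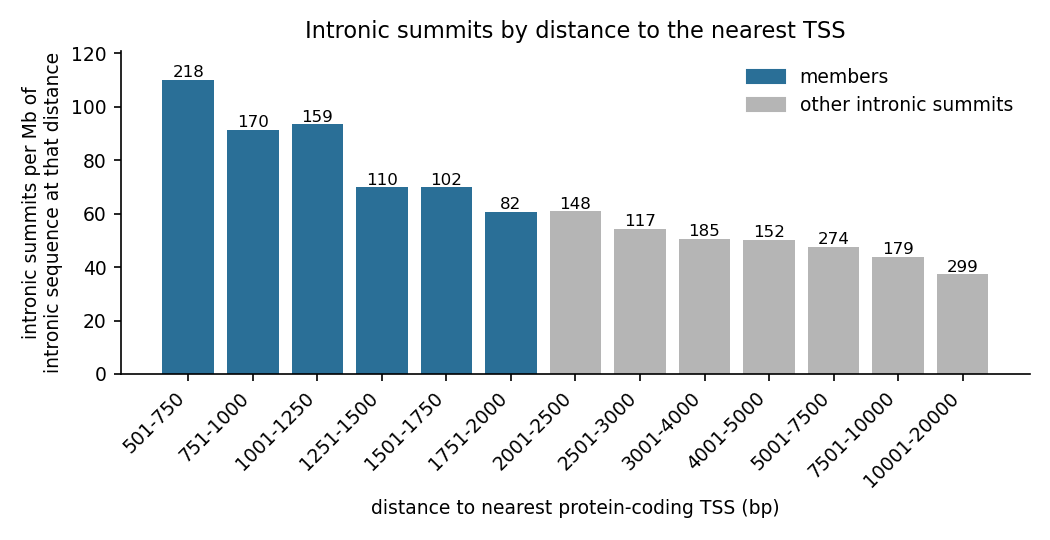
Intronic summits per Mb of intronic sequence (y axis) by distance to the nearest protein-coding TSS (x axis, bins of unequal width), with the number of summits above each bar. Density was 110 per Mb closest to the TSS and 60.7 at the far end of the member band, next to 60.9 in the first bin outside it.

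The band was a choice of distance, and the 3 summits on each side of each end are given here as a description. Just inside the lower end lay mats, a co-activator of the Hippo kinase Warts (the first position inside, signal 248), Pen, an importin (502 bp, 510), and CG32512 (503 bp, 419). Just outside it, at 498 to 500 bp, lay rdx, a ubiquitin ligase adaptor that acts on Ci (213), CG10433 (173) and Eip63F-1 (206). At the upper end dlp, a glypican that binds Wingless (2000 bp, 147), Irk1, an inward rectifier potassium channel (1999 bp, 102), and crol, an ecdysone-responsive zinc finger gene (1997 bp, 164), were inside. Summits in CHES-1-like (2003 bp, 165), Tet (2006 bp, 105) and Egfr (2007 bp from the TSS of CG30283, 339) were outside.

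By arm, X held 97.7 members per Mb of eligible sequence, 3L 90.1, 3R 84.9, 2R 80.9 and 2L 71.2. Deep intronic summits were also densest on X, at 49.6 per Mb. Chromosome 4 had 2 members in 0.0877 Mb: Asator, a tau tubulin kinase gene (signal 146, 60.5 in replicate 1 and 85.8 in replicate 3), and Rnf11 (109, 52.1 and 56.9).

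The closest TSS belonged to the host gene for 776 members (92.3%, interval 90.3% to 94%). For 557 members (66.2%) the summit lay downstream of that TSS, at 90.6 per Mb of such sequence. For 219 (26%) it lay upstream of an alternative TSS of its own host gene, in an intron of a longer transcript, at 118 per Mb. Where the closest TSS belonged to another gene, density was lower: 54 members lay upstream of it (39.3 per Mb) and 11 downstream (20.3 per Mb). Median signals were 183 and 187 downstream and upstream of the host gene's own TSS, and 196 upstream of another gene. The closest TSS of a noncoding RNA was within 500 bp for 14 members.

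Members were mostly in first introns. In the host transcript with the closest TSS, 669 lay in intron 1 (79.5%), 126 in intron 2 (15%) and 46 in a later one (5.47%). Of deep intronic summits 50.8% lay in intron 1. The position rule itself favours early introns, so the contrast is not independent of it. The median length of a member's intron was 4909 bp (quartiles 2144 to 10902 bp), and lengths ran from 123 to 103624 bp.

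Fewer members than not had a promoter peak at the same TSS. The closest TSS had an optimal summit within 500 bp for 315 members (37.5%, interval 34.2% to 40.8%) and for 27.4% of deep intronic summits. Of all 12741 TSS that lie closest to some eligible sequence, 19.3% had one. Counted in the same way, 251 of the 683 distinct TSS closest to members had one (36.7%). The count depends on the list: with an optimal summit within 250 bp the share of members was 23.8%, and with any summit of the relaxed pooled list within 500 bp it was 74%. The relaxed list held 29973 summits on the arms, and the share of other TSS with one was not computed. In the 315 pairs the intronic summit exceeded the promoter summit in 141, and the median ratio of intronic to promoter signal was 0.94 (quartiles 0.568 to 1.47). Some pairs were neighbouring summits of 1 stretch on either side of the 500 bp limit, so a pair need not be 2 separate sites. In chn the member interval (15127824 to 15128952) held both the member summit (15128311) and the promoter summit (15128524). The arr interval also held both (13476746 and 13476947). Such pairs were not counted. The signals of the pair were only weakly related (Spearman's rank correlation 0.113 over 315 pairs in 1 pooled list, some of which share a TSS). Within the band the share with a promoter peak showed no steady trend with distance: it was 36.2% from 500 to 750 bp, 30% in the next bin, 37.1% up to 1250 bp, 48.2% up to 1500 bp, 40.2% up to 1750 bp and 39% up to 2000 bp. Beyond the band it was 31.8% from 2000 to 2500 bp, 37.6% from there to 3000 bp, 27.6% from 4000 to 5000 bp, 21.2% from 7500 to 10000 bp and 25.4% from 10000 to 20000 bp. The highest ratio was at CG32772, a zinc finger gene, with 1220 in the intron and 99.9 at the promoter (12.2-fold).

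The pooled signal of members ran from 99.7 to 2866, with a median of 185 and quartiles of 133 and 308. The median was 204 at promoter summits, 165 at deep intronic and 166 at intergenic summits. With arm summits split by signal into 10 groups, members took 12.7% of the highest group and 9.67% of the lowest, and 23 of the 100 highest summits. The lowest members were CG6707 (100), the esterase gene Est-Q (99.8) and sgg (99.7). The −log10 q, also the authors' value, was at its ceiling of 3.94 for 557 members (66.2%) and for 66% of all arm summits, so it does not rank the stronger ones.

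The strongest member lay in the first intron of ush, which encodes a cofactor of GATA factors, 1413 bp upstream of the TSS of cbt, a zinc finger gene. Its signal was 758 in replicate 1 and 2150 in replicate 3, and 2866 in the pooled list, against 645 at the cbt promoter. In CG11050 the values were 578, 1223 and 1798. In Lk6, a kinase that phosphorylates the translation factor eIF4E, they were 455, 1187 and 1636. All 3 were higher in replicate 3. In Zw, the glucose-6-phosphate dehydrogenase of the pentose phosphate pathway, the libraries gave 357 and 1118 and the pooled list 1471. CG9663, an ABC transporter gene, had 287 and 1016 (pooled 1330), and wit, a type II receptor for BMP ligands, 308 and 978 (pooled 1281). Among these only ush and CG9663 had a promoter peak.

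The next members held chif, a Dbf4-related gene needed for chorion gene amplification (362 and 861, pooled 1220), and CG32772 (218 and 1014, pooled 1220). The KCNQ summit lay 778 bp from the TSS of mlt, a tubulin cofactor-like gene, with 251 and 930 (pooled 1171). Adf1, a transcription factor first found at Adh, had 332 and 856 (pooled 1159). These again were higher in replicate 3, by 2.38- to 4.65-fold. In crb, an apical polarity gene, the libraries gave 324 and 810 (pooled 1135), and in for, the cGMP-dependent kinase of foraging behaviour, 284 and 837 (pooled 1123). Trl had 308 and 778 (pooled 1078), LPCAT, a phospholipid acyltransferase, 182 and 893 (pooled 1074), and CG3726 241 and 818 (pooled 1056). LPCAT had the highest ratio between libraries of the 20, at 4.91. Prps, a phosphoribosyl pyrophosphate synthetase, had 323 and 712 (pooled 1026) and CG9837 215 and 796 (pooled 1006). The last were Diap1, the inhibitor of apoptosis (296 and 684, pooled 983), shn, a zinc finger partner of Mad in Dpp signalling (297 and 665, pooled 980), and fru, a BTB factor of male courtship (268 and 697, pooled 958). Of these 20 members, 17 lay in a first intron and 3 in a second intron, 11 downstream of the closest TSS, and 7 had a promoter peak there. All 20 were in both libraries' own top lists.

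**Figure D3:**
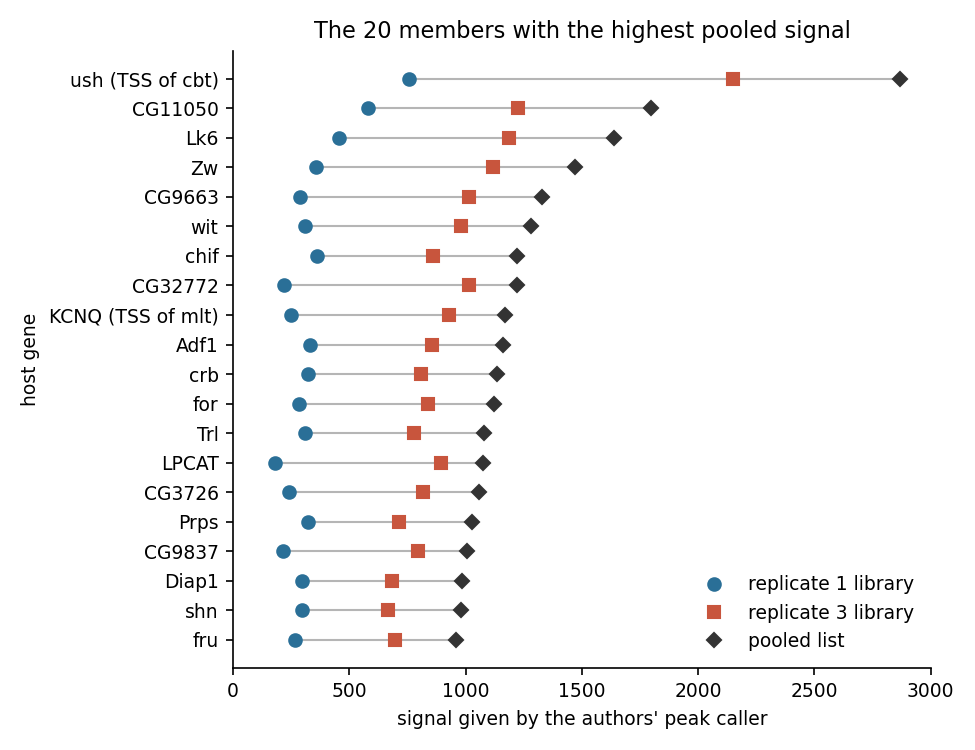
Signal (x axis) of the 20 members of highest pooled signal, by host gene (y axis), in the replicate 1 library (circles), the replicate 3 library (squares) and the pooled list (diamonds). Replicate 3 was above replicate 1 at each of the 20, and ush stood apart at 2866.

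A library's signal for a member is that of its highest peak overlapping the member by 1 bp or more. A peak was found in replicate 1 for 830 members, in replicate 3 for 840 and in both for 829. Of all 6614 arm summits, 6474 had a peak in both. As neighbouring members can overlap 1 library peak, 194 members shared their replicate 3 peak with another member and 206 their replicate 1 peak. The summit lay inside the highest 6636 peaks of both libraries for 585 members (69.6%), beside 70.9% of all arm summits. It lay in the top list of replicate 3 alone for 193 members (22.9%, beside 19.2% of all) and of replicate 1 alone for 55 (6.54%, beside 8.94%), and 8 were in neither. The shares in both lists and in each alone lay near the background. The ratio of replicate 3 to replicate 1 signal had a median of 2.42 (quartiles 1.78 to 3.19) and was over 2 for 535 of 829 members, beside 52.9% of all arm summits with both values. The median was 1.72 at promoter summits and 2.51 at deep intronic summits. With 1 library on each side, neither the ratio nor its difference between classes has a replicate check. The level of the ratio cannot be told apart from a difference in the unstated scaling of the lists. The summits of the 2 libraries were within 100 bp of each other for 71.5% of members and 75.5% of all arm summits.

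**Figure D4:**
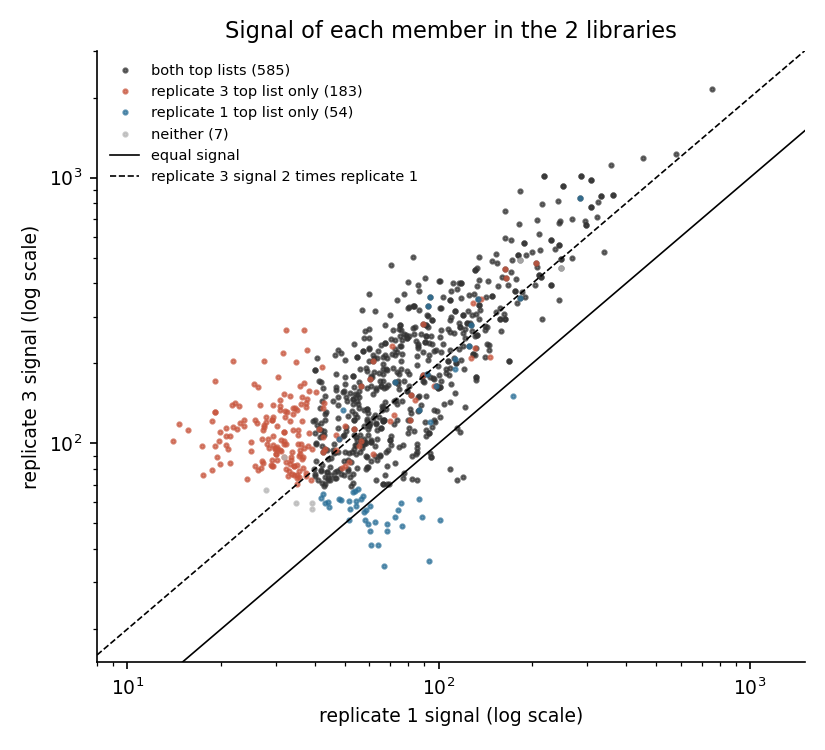
Replicate 3 against replicate 1 signal (log axes) for the 829 members with a peak in both libraries, coloured by membership of each library's top list. Most points lie above the line of equal signal, around a median ratio of 2.42, with the widest scatter at low signal.

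Replicate 3 exceeded replicate 1 at 795 of the 829. The ratio was under 1 for 34 of these members, beside 391 of the 6474 arm summits with both values. The highest ratios were in CG14636 (21.8 and 204, a ratio of 9.37), tna, a SUMO ligase-like trithorax group gene (19.1 and 171, 8.98), Tlk, the Tousled-like kinase (32.3 and 267, 8.28), CG12065 (14.7 and 118, 8.05) and Spn, the phosphatase regulator Spinophilin (27.5 and 205, 7.46). The lowest were a second summit in Tlk (92.9 and 36.2, 0.39), tara (51.7 in replicate 3, 0.51), the BTB gene lola (66.7 and 34.7, 0.52), alpha-Man-Ia, a mannosidase of N-glycan processing (88.8 and 53, 0.597), and the GATA factor gene GATAd (120 and 75, 0.626). All of these lay at pooled signals of 301 or less. Tlk thus held summits at both ends of the range of ratios. A common scaling of a list would leave this order of ratios as it is.

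The 841 members lay in 594 host genes, of 9062 protein-coding genes with eligible sequence (6.55%). There were 421 hosts with 1 member, 127 with 2 and 30 with 3. The 16 hosts with 4 or more held 76 members. In all, 385 members (45.8%) had another optimal summit within 1000 bp, so members are not independent sites. The same share over all arm summits is not given here, so the count does not set members apart. shn held 8 members at 3 of its start sites, across 21786 bp, with signals from 147 to 980, 6 of them in both top lists. Tlk held 6 across 60548 bp (110 to 332), of which 2 were in both top lists. Hosts of 5 were Diap1 (up to 983), fru (126 to 958), brat, a translational repressor of growth (119 to 525), Svil, a supervillin (177 to 492), ckn, a caskin (132 to 413), and sbb, a nuclear repressor (109 to 212). Hosts of 4 were the HMG-box gene HmgZ (118 to 682), the BTB factor gene psq (143 to 526), the kinase gene sgg (99.7 to 455), the chromatin remodelling gene tou (215 to 362), px, a wing vein gene (164 to 278), CG1677 (132 to 232), CG9674 (116 to 229) and the innexin gene ogre (114 to 186). In Diap1 and fru 1 summit stood far above the others. In tou the signals were 362, 355, 345 and 215, and all 4 summits were in both top lists. Those of 355 and 345 overlapped the same peak of each library.

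Host genes were sorted by 22 lists of genes that act in larval growth, signalling and chromatin. Of 540 listed gene entries found in the annotation, 473 distinct genes had eligible sequence and 102 of these were hosts (21.6%, beside 6.55% of all such genes). The listed genes had more eligible sequence each, with a median of 1368 bp against 379 bp for all genes with eligible sequence. They held 143 members per Mb against 84.7. As 18 of the 22 lists lay above 84.7 per Mb, a list is not set apart by lying above it, and a list's values are given as a description. The lists overlap, and 1 gene can supply most of a list's members. A host is the gene whose intron holds the summit, and the closest TSS can be that of another gene. Among the summits given below with their signals this was so for Eip75B (TSS of CG32192), mam (CG18371), arr (CG43192), Ptp61F (FucTD), Fas3 (CG34171), brat (Polr1D) and ACC (Nup44A), and also for the fz summit (CG13482).

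The host share of a signalling list is read beside the 21.6% of all listed genes. Of 15 Dpp and activin pathway genes 5 were hosts (33.3%; 14 members, 300 per Mb, 8 of them in shn): besides wit and shn they were put, the other type II receptor (261), and the Smads Mad (176) and Smox (112). EGF receptor and Ras pathway genes had 8 hosts of 20 (40%; 13 members, 268 per Mb). They included the kinase gene Raf (804), the inhibitor sty (259), edl, an antagonist of Yan (250), the receptor gene Egfr (224), the ligand gene spi (185) and aop, which encodes Yan (170). Wingless pathway genes had 6 of 20 (30%): the receptors fz2 (585), fz3 (379) and, lowest of the list, fz, the co-receptor arr (561), sgg (455) and dlp (417). Of Notch pathway genes 4 of 17 were hosts (23.5%), namely neur, a ubiquitin ligase for the ligands (629), numb (338), the glycosyltransferase fng (187) and the co-activator mam (115). JNK and JAK-STAT genes had 4 of 18 (22.2%): Socs36E (342), the Fos gene kay (330), Ptp61F (182) and Stat92E (152). Hippo pathway genes had 4 of 17 (23.5%), namely crb, mats, sd (146) and wts (120). Insulin and TOR genes had 3 of 21 (14.3%): Lk6, scyl (126) and S6k (109).

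Transcription and chromatin lists followed. GATA, Kruppel-like and BTB factor genes had 9 hosts of 24 (21 members, 212 per Mb), led by ush, Trl, fru, chn, lola (527) and psq. Ecdysone response genes also had 9 of 24 (37.5%, interval 18.8% to 59.4%), at 120 per Mb. They were led by ush, then ImpL2, a secreted insulin antagonist (487), and the nuclear receptor genes Hr4 (362) and Eip75B (310). The receptor co-activator tai (319) and the Ets gene Eip74EF (249) were also among them. Of bZIP and bHLH genes 7 of 25 were hosts, led by Mnt (586), sima (438), kay, CrebB (298), cnc (135) and vri (125). Circadian clock genes had 3 of 12: sgg, vri and Pdp1 (115). Polycomb and trithorax group genes had 4 of 30, which were Trl, ph-p (455), the bromodomain gene fs(1)h (282) and osa (102). Among homeodomain and eye-antennal factors 1 of 32 was a host (3.12%, interval 0.0791% to 16.2%), Abd-B (232), at 12.3 members per Mb. The HP1c, woc and row complex list had 0 hosts of 5, but only 0.000977 Mb of eligible sequence.

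Other lists described cell structure and metabolism. Genes for RNA-binding proteins had 11 hosts of 31 (108 per Mb), led by mub (834), brat (525), Rbp9 (338), shep (326), Sxl (256) and elav (242). Actin and myosin genes had 9 of 33 (200 per Mb), led by the unconventional myosins jar (351) and ck (330), the filamin gene cher (330), the fascin gene sn (269), Msp300 (239) and ena (206). Lipid metabolism genes had 7 of 28, led by the droplet protein gene Lsd-2 (439), Acsl (336), whd (310), Lpin (194), the lipase gene bmm (155) and ACC (117). Ion channel and transporter genes had 6 of 30 (83.7 per Mb): KCNQ, Itpr (215), Trpm (194), nrv2 (120), Irk1 (107) and, lowest, Shal. Cell adhesion genes had 3 of 30 (39.4 per Mb): Fas3 (205), pyd (129) and scrib (111). Pentose phosphate and glycolysis genes had 2 of 18, Zw and Pgd (334), which encode the oxidative dehydrogenases of the pentose phosphate pathway. Cell cycle genes had 3 of 21, ago (190), E2f1 (126) and stg (120), and apoptosis and autophagy genes had 1 of 19, Diap1.

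**Figure D5:**
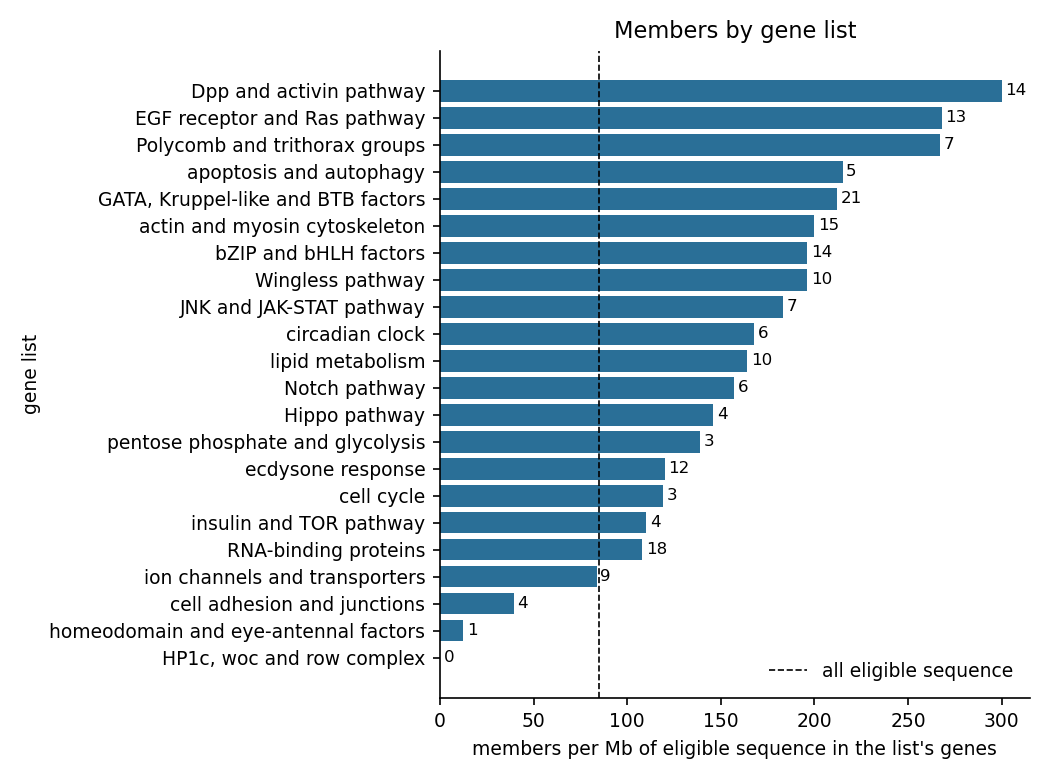
Members per Mb of eligible sequence (x axis) in the genes of each of the 22 lists (y axis), with the number of members beside each bar. The dashed line marks 84.7 per Mb, the density over all eligible sequence. Lists run from 300 per Mb for the Dpp and activin pathway to 12.3 for homeodomain factors and 0 for the HP1c, woc and row complex.

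The strongest members with the remaining motifs lay in hosts not yet named for them. They were Akap200 for the DRE (234), Dhc64C, a dynein heavy chain gene, for TGACGTCA (631), prage for the E-box CACGTG (589), Mekk1, a stress kinase, for the E-box CAGCTG (551), CG42445 for TTGCGCAA (138) and Lsd-2 for GGCGCC (439). Prps was the strongest with AGATAA, chif with CACACACA, CG3726 with TTACGTAA, shn with AGGTCA (613) and Mnt with CAGGTAG (586). Each of these motifs was in 0.238% to 14.7% of members.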

How the data were processed

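Whole-larva ChIP-seq of woc-GFP gave 2 libraries of 1 group. The authors deposited narrowPeak lists on dm6: a relaxed list per library and for pooled alignments, and an optimal list after their irreproducible discovery rate (IDR) threshold. Signal and −log10 q per peak are the authors' values, per the labels and the deposited columns. The aligner, caller and IDR threshold were not given in the sources used here. Lists on dm3 were not used. Read totals were not used, so depth is unknown, and exact binomial intervals hold counting error alone, over peaks or genes.

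Summits were placed on Ensembl release 115 (BDGP 6.54) with Python 3.11.15, numpy 2.4.6, pandas 2.3.3 and scipy 1.17.1, excluding exons of every biotype. 21 further summits in the band lay in exons of other biotypes, 5 of them in transposable elements. A summit is the peak's start plus the deposited offset. Windows of 201 bp (100 bp to either side of a summit) were read from the RefSeq Release 6 genome. The class assignment and word ranking were tested on positions and planted words with known answers. Words of 8 letters were ranked after those of 6 had been seen. The members, gene lists and motifs were chosen with earlier results of these data known. Members were named by rule: the 20 highest and 3 lowest signals, hosts with 4 or more members, the highest per arm and per motif, the 3 on each side of each band end, the 5 highest and lowest library ratios, and every list host, or the 6 highest. Of the listed gene entries 9 were not matched to the annotation and are not analysed here. Some members that these rules name are not reported here. No condition was compared and no test was made.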

Additional observations from a re-analysis of the deposited data

How the results depend on the processing

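Of 44 recomputed values for the main results, 23 stayed within their interval or within 1.5 times the count and 21 did not. With 1 library in place of the pooled list, members numbered 818 to 874, their share of summits was 12.4% to 13.2% and their density 82.4 to 88.1 per Mb. The 3318 optimal peaks of highest signal held 426 members at 42.9 per Mb, as fewer peaks were counted, with the share of summits at 12.9%. Counting 1 member per nearest start site gave 68.8 per Mb. The band up to 1000 bp held 388 members (5.87% of summits), that from 1000 to 2000 bp 453 (6.85%), and that up to 3000 bp 16.7% of summits, of which 90% had the closest TSS in the host gene. The share with a promoter peak was 33.5% in the first of these bands and 40.8% in the second. It was 23.8% within 250 bp of the TSS, and 74% where a summit of the relaxed pooled list sufficed, a share not computed for other TSS. Counting the first intron of any transcript gave 84.4%. Asking for a summit of each top list within 100 bp lowered the share found in both libraries to 58%. Within both top lists the median library ratio was 2.3. Windows of 50 and 200 bp on each side gave a GC content of 34.7% and 38.7%, and a word pair share of 4.28% and 13.1%, against 0.637% and 2.73% of eligible windows. The word pair's share was 5.5% to 8.35% with 1 library. The word pair, start site and both-list alternatives were chosen after seeing the data.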
